A study of Mus musculus with 24 samples.

Results

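The comparison described here set the genotype effect of CAG42 mice in cerebellum against the genotype effect in brainstem, probe set by probe set, as (CAG42 minus WT in cerebellum) minus (CAG42 minus WT in brainstem). It rests on 16 of the 24 arrays of the series, with 4 arrays each for cerebellum of CAG42 mice, cerebellum of WT mice, brainstem of CAG42 mice and brainstem of WT mice, and on all 45037 probe sets other than the array's controls out of 45141. The CAG42 mice are Atxn2 Knock-In animals, homozygous for an expanded CAG repeat placed in the endogenous Atxn2 gene and therefore under its own promoter in every tissue. The line came from embryonic stem cells of a strain other than C57BL/6, its selection cassette was excised, and it was backcrossed to C57BL/6 for at least 8 generations. The wild type (WT) animals were littermates, and the age of all mice was 18 months, which the methods give and the labels do not. Neither labels nor methods give their sex.

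Atxn2 encodes ataxin-2, a cytosolic protein that binds poly(A)-binding protein and takes part in mRNA translation and decay. Expansion of its polyglutamine tract causes spinocerebellar ataxia type 2 in humans, a disease in which Purkinje neurons of the cerebellum and neurons of the pons and lower brainstem are lost. Both tissues are thus affected in the human disease, and their cell composition differs: the cerebellum is dominated by granule neurons, while the brainstem holds monoaminergic, cholinergic and peptidergic nuclei and a large share of myelinated tracts. A difference of the 2 genotype effects above 0 means that CAG42 minus WT was more positive, or less negative, in cerebellum than in brainstem. All levels are RMA values on the log2 scale, so that 1 unit is a 2-fold change.

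The tissue labels fitted the markers. Pcp2, a Purkinje cell protein, averaged 12.38 in cerebellum of CAG42 mice and 12.39 in WT cerebellum, against 8.64 and 8.48 in brainstem of CAG42 and WT mice. The serotonin transporter Slc6a4 averaged 7.61 in brainstem of CAG42 mice and 7.53 in WT brainstem, and lay near the lower end of the scale in cerebellum, at 2.85 in CAG42 and 2.73 in WT mice. The forebrain markers Neurod6 and Emx1 had means of at most 3.85 in all 4 groups. Arrays of one group correlated with r of at least 0.992, and median levels per array ran from 4.42 to 4.62. The 23 control probe sets for nonspecific binding had array medians between 2.58 and 2.77, and no detection calls were used, so that a level near 3 cannot be told from background. In brainstem the granule cell genes Gabra6 and Neurod1 lay below their cerebellar means but far above background. Their means there were 8.33 and 8.31 in CAG42 mice and 8.17 and 8.23 in WT mice. How much cerebellar tissue the brainstem samples held was not tested. Per the methods the arrays of a group stand for separate animals, for which the labels give replicate numbers only. In these bulk samples fewer cells of a type and less RNA per cell cannot be told apart.

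Only 1 probe set of 45037 (0.00222%) passed the test of the difference at an adjusted p under 0.05 from limma with Benjamini-Hochberg correction, 1441721_PM_at, which the annotation assigns to no gene. It fell far more in brainstem than in cerebellum. In cerebellum the levels of 1441721_PM_at were 2.89, 3.14, 3.04 and 3.21 in CAG42 mice, against 3.87, 3.45, 3.49 and 3.99 in WT mice. In brainstem they were 3.75, 3.41, 3.34 and 3.33 in CAG42 mice, against 5.91, 5.80, 5.41 and 5.70 in WT mice. The genotypes did not overlap in either tissue, and the brainstem of WT mice held the only 4 arrays above 4. The log2 difference CAG42 minus WT was -0.63 in cerebellum (1.55-fold lower, adjusted p = 0.247 from limma) and -2.24 in brainstem (4.74-fold lower, adjusted p = 9.11e-07). The difference of these effects was 1.61 with a standard error of 0.19, a 95% interval from 1.20 to 2.02 and an adjusted p of 0.0146.

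This call was not stable. Arrays with the same genotype and number deviated together in the 2 tissues, and with the number as a block the adjusted p was 0.0718, so that 0 probe sets were called. The estimate with the block is 1.61 by construction, and its standard error was 0.18. Among the alternative fits described below, this call was kept with all 24 arrays, a random block and quantile normalization within tissue. Array weights, an intensity-dependent prior and the choroid plexus level as covariate also kept it. The call was lost in 15 of 24 fits that left out 1 array, or the 2 arrays of one genotype and number, with adjusted p between 0.00721 and 0.25 over the 24 fits and estimates between 1.498 and 1.77. In cerebellum of CAG42 mice the probe set was close to the controls for nonspecific binding, which bounds how far it could fall there from the WT mean of 3.70. Within each replicate number, cerebellum minus brainstem was -0.86, -0.27, -0.31 and -0.12 in CAG42 mice, against -2.04, -2.35, -1.92 and -1.70 in WT mice.

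**Figure D1:**
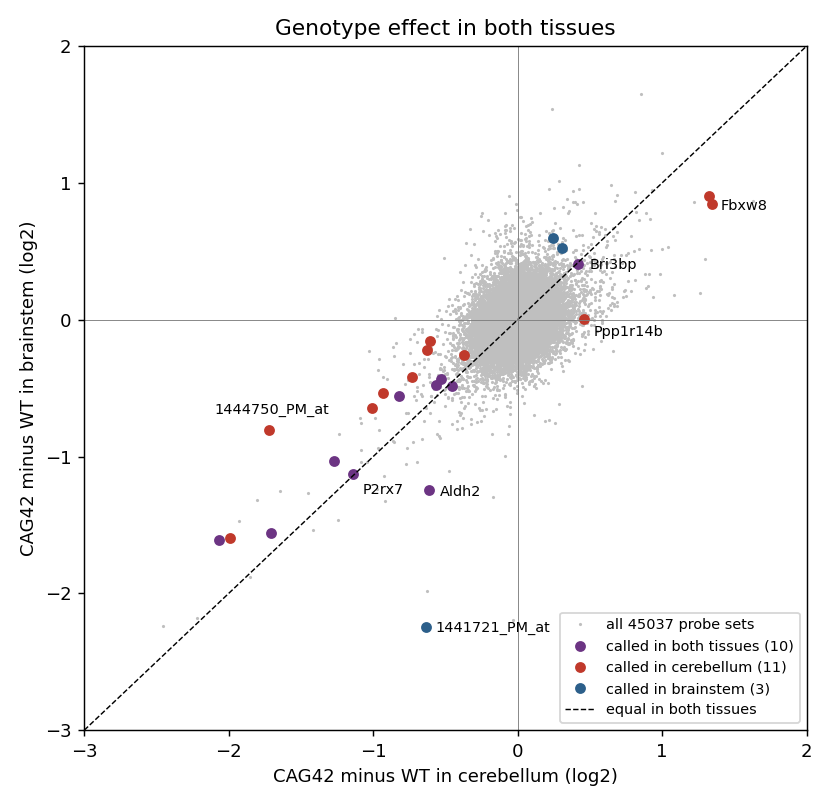
Genotype effect (CAG42 minus WT, log2) in cerebellum on the horizontal axis and in brainstem on the vertical axis, 1 point per probe set, n = 4 arrays per group. Coloured points passed an adjusted p under 0.05 in cerebellum, in brainstem or in both; 1441721_PM_at lies far below the line of equal effects, with -0.63 in cerebellum and -2.24 in brainstem.

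No other probe set passed, which does not show that the effects were equal. At an unadjusted p under 0.05 there were 1534 (3.41% of those tested), 787 of them above 0 and 747 below, and 1056 assigned to 1 gene. The median difference over all probe sets was 0.00 and the central 90% lay between -0.245 and 0.244. The arrays gave a median standard error of 0.14 and a median half-width of the 95% interval of 0.29. The interval stayed within -1 and 1 for 44024 probe sets (97.8%) and within -0.5 and 0.5 for 32911 (73.1%). With the number as a block 1908 probe sets (4.24%) had an unadjusted p under 0.05 and 0 an adjusted one.

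The 24 probe sets called in 1 of the tissues or in both had estimates of one sign in cerebellum and brainstem, but 14 of them passed in 1 tissue only. In cerebellum 21 probe sets passed (0.0466%), 4 of them higher (0.00888%) and 17 lower (0.0377%). In brainstem 13 passed (0.0289%), 3 higher (0.00666%) and 10 lower (0.0222%). At an unadjusted p under 0.05 the shares of all probe sets were 6.47% in cerebellum and 7.27% in brainstem. Of the 21 and 13 probe sets, 10 passed in both tissues, which is 47.6% of those of cerebellum and 76.9% of those of brainstem, and all 10 fell or rose in both. With the number as a block 12 passed in cerebellum and 6 in brainstem. When all 24 arrays shared the estimate of the spread, 6 of the 21 cerebellar calls and 7 of the 13 brainstem calls were lost. The effect was larger in cerebellum for 19 of the 24 and larger in brainstem for 5, and each of these was called in the tissue of its larger effect, which the selection favours. The 95% interval of the difference included 0 for 12 of the 24. They comprised 11 probe sets with a named gene.

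P2rx7, an ion channel gated by extracellular ATP, had nearly equal estimates in both tissues. Its probe set 1439787_PM_at had 3.62, 3.98, 3.76 and 3.89 in cerebellum of CAG42 mice, against 4.95, 4.69, 5.02 and 5.15 in WT cerebellum. In brainstem the levels were 4.27, 4.48, 4.40 and 4.29 in CAG42 mice, against 5.65, 5.64, 5.25 and 5.39 in WT mice. The genotypes were apart in both tissues, with effects of -1.14 in cerebellum (adjusted p = 0.000209 from limma) and -1.13 in brainstem (adjusted p = 0.00023). The difference was -0.01, with a 95% interval from -0.35 to 0.32. Bri3bp, which encodes a membrane protein that binds BRI3, rose by 0.42 in cerebellum and 0.41 in brainstem by 1438198_PM_at (adjusted p = 0.00803 and 0.0156; 0.606 and 0.882 with 24 arrays), a difference of 0.01 with an interval from -0.16 to 0.19. For both genes a difference as large as the effect itself lies outside the interval.

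Fbxw8, the substrate-recognition subunit of a cullin ubiquitin ligase, rose in cerebellum, and its effect in brainstem had the same direction without passing. Probe set 1426944_PM_at had 8.15, 8.16, 8.15 and 8.38 in cerebellum of CAG42 mice, against 6.79, 6.54, 7.48 and 6.65 in WT cerebellum. In brainstem it had 7.500, 7.41, 7.41 and 7.501 in CAG42 mice, against 6.53, 6.55, 6.94 and 6.43 in WT mice. No CAG42 array overlapped with a WT array of its tissue, as was the case for 3.94% of all probe sets in cerebellum and 3.7% in brainstem, and the WT arrays numbered 3 were the highest of their group in both tissues. The genotype effect was 1.35 in cerebellum (2.54-fold, adjusted p = 0.00128 from limma) and 0.84 in brainstem (1.79-fold, adjusted p = 0.165). The difference of 0.50 had a 95% interval from 0.03 to 0.98 and did not pass after correction (adjusted p = 0.999).

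By number, cerebellum minus brainstem of 1426944_PM_at was 0.65, 0.75, 0.74 and 0.87 in CAG42 mice, against 0.26, -0.02, 0.54 and 0.23 in WT mice. These differences did not overlap, as was the case for 2.44% of all probe sets. With the number as a block the interval narrowed to 0.23 to 0.77 (adjusted p = 0.954). Without the WT arrays numbered 3 in both tissues the difference was 0.60. The second Fbxw8 probe set, 1436732_PM_s_at, rose by 1.32 in cerebellum (adjusted p = 0.0226) and had an effect of 0.90 in brainstem (adjusted p = 0.376). Its difference was 0.42, with an interval from -0.20 to 1.04 and, with the block, from 0.13 to 0.72. Leaving out the WT array numbered 3 in brainstem alone gave 0.26 for this probe set, leaving it out in cerebellum alone 0.69, and leaving it out in both tissues 0.53. The remaining, dim probe set of the gene, 1458413_PM_at, had 0.55 in cerebellum and 0.21 in brainstem. Fbxw8 was chosen for its cerebellar effect, so that an estimate larger in cerebellum is favoured by the choice.

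**Figure D2:**
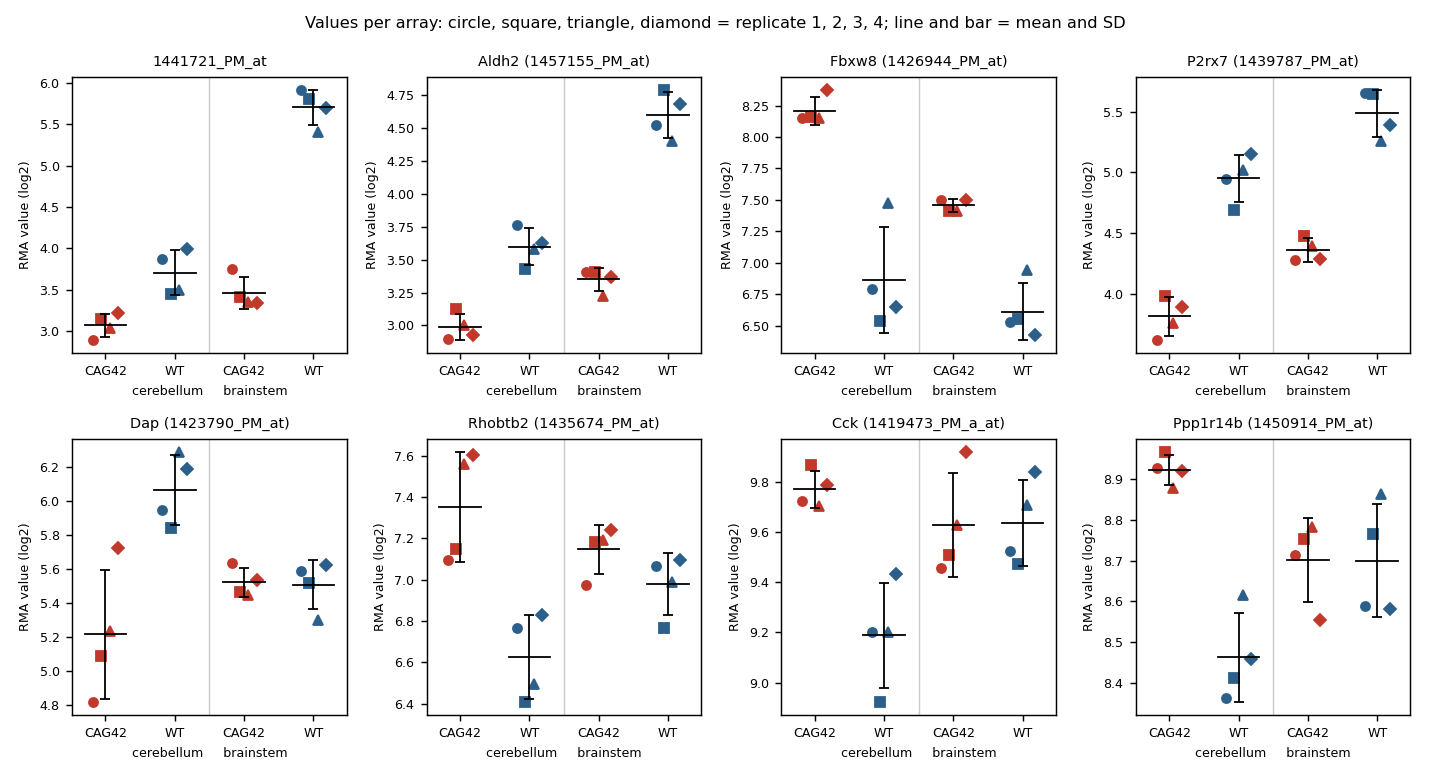
RMA values (log2) of 8 probe sets on each of the 16 arrays, CAG42 in red and WT in blue, cerebellum left and brainstem right in each panel. Marks are replicate numbers and bars are mean and SD (n = 4); 1441721_PM_at is high only in WT brainstem, P2rx7 has parallel shifts, and Dap, Cck and Ppp1r14b are apart by genotype in cerebellum and overlap in brainstem.

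Adam1a, which encodes a membrane metalloprotease of the ADAM family, fell in cerebellum. Probe set 1427790_PM_at had 6.11, 6.48, 6.54 and 6.42 in cerebellum of CAG42 mice, against 7.33, 7.29, 7.38 and 7.26 in WT cerebellum, and in brainstem 6.21, 6.11, 6.13 and 5.73 in CAG42 mice, against 6.65, 6.68, 6.30 and 6.70 in WT mice. The genotypes were apart in both tissues, with effects of -0.93 (adjusted p = 0.00216 from limma) and -0.53 (adjusted p = 0.351). The difference was -0.40, with a 95% interval from -0.74 to -0.05. Probe set 1443378_PM_s_at, which the platform's annotation leaves unnamed and the study assigns to Adam1a, fell in both tissues, by 0.82 in cerebellum and 0.55 in brainstem (adjusted p = 0.000209 and 0.0148; with 24 arrays 0.206 in brainstem), with a difference of -0.27 and an interval from -0.51 to -0.03. The last probe set of Adam1a, 1427791_PM_a_at, lay between 2.52 and 2.97 on all 16 arrays. No Adam1a probe set passed the test of the difference after correction.

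Aldh2, mitochondrial aldehyde dehydrogenase, had the lowest p of the difference among named genes, by a single dim probe set. In cerebellum 1457155_PM_at had 2.90, 3.12, 3.002 and 2.93 in CAG42 mice, against 3.77, 3.43, 3.58 and 3.63 in WT mice. In brainstem it had 3.41, 3.41, 3.22 and 3.37 in CAG42 mice, against 4.52, 4.79, 4.40 and 4.68 in WT mice. The pattern was that of 1441721_PM_at on a smaller scale, with WT brainstem above the 3 other groups. The probe set fell by 0.61 in cerebellum and by 1.25 in brainstem (adjusted p = 0.015 and 7.35e-06 from limma), a difference of 0.64 with an interval from 0.36 to 0.91 and an adjusted p of 0.999. The 2 brighter probe sets of Aldh2 had differences of -0.10 (1448143_PM_at, mean level 8.84 in cerebellum of CAG42 mice) and 0.08 (1437410_PM_at, 5.72), with effects between -0.13 and -0.03 in both tissues.

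The remaining named calls were made in 1 tissue each and were small. Ppp1r14b, an inhibitory subunit of protein phosphatase 1, rose by 0.46 in cerebellum (adjusted p = 0.0488 from limma) and was equal in brainstem, with means of 8.70 in both genotypes. Its levels by 1450914_PM_at were 8.93, 8.97, 8.88 and 8.92 in cerebellum of CAG42 mice, against 8.36, 8.41, 8.62 and 8.46 in WT cerebellum, and 8.71, 8.75, 8.78 and 8.55 in brainstem of CAG42 mice, against 8.59, 8.77, 8.86 and 8.58 in WT brainstem. The genotypes were thus apart in cerebellum and overlapped in brainstem, and the difference of 0.46 had an interval from 0.23 to 0.69 (adjusted p = 0.999). Stag1, a subunit of cohesin, fell in cerebellum by 0.60 by 1421939_PM_a_at (adjusted p = 0.0226), against an effect of -0.15 in brainstem, and 5 other Stag1 probe sets did not pass in either tissue. The transcript A930024E05Rik fell in cerebellum by 0.73 (adjusted p = 0.00285), with an effect of -0.42 in brainstem (adjusted p = 0.371). In brainstem alone, Anapc5, a subunit of the anaphase-promoting complex, rose by 0.60 (adjusted p = 0.0418) and Vps33a, which serves fusion with lysosomes, by 0.52 (adjusted p = 0.0249), where the cerebellar effects were 0.24 and 0.31. With 24 arrays the adjusted p was 0.0935 for Ppp1r14b and 0.359 for Stag1 in cerebellum, and 0.456 for Anapc5 and 0.915 for Vps33a in brainstem, so that these 4 calls were lost. The differences were -0.45 for Stag1, -0.31 for A930024E05Rik, -0.36 for Anapc5 and -0.22 for Vps33a, and none passed.

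Among the calls the largest effects belonged to unnamed probe sets. Probe set 1444750_PM_at had 4.67, 5.03, 5.72 and 5.66 in cerebellum of CAG42 mice, against 7.27, 6.86, 6.83 and 7.02 in WT cerebellum, and 4.04, 3.51, 3.94 and 3.74 in brainstem of CAG42 mice, against 4.88, 4.49, 4.52 and 4.55 in WT brainstem. The genotypes were apart in both tissues, with a fall of 1.72 in cerebellum (adjusted p = 0.000911 from limma) and an effect of -0.80 in brainstem (adjusted p = 0.437). The difference was -0.92, with an interval from -1.504 to -0.33. By contrast 1447526_PM_at fell by 1.71 in cerebellum and by 1.56 in brainstem, a difference of -0.15 with an interval from -0.54 to 0.24. Probe set 1443905_PM_at fell by 2.07 and 1.61, and its difference of -0.46 had an interval from -0.93 to 0.01. The bright probe sets 1437666_PM_x_at, 1420494_PM_x_at and 1425966_PM_x_at, with means between 10.23 and 12.33, fell by 0.43 to 0.57 in both tissues and had differences between -0.10 and 0.03. With 24 arrays only the cerebellar call of 1420494_PM_x_at was kept among these 3 (adjusted p = 0.0499).

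**Figure D3:**
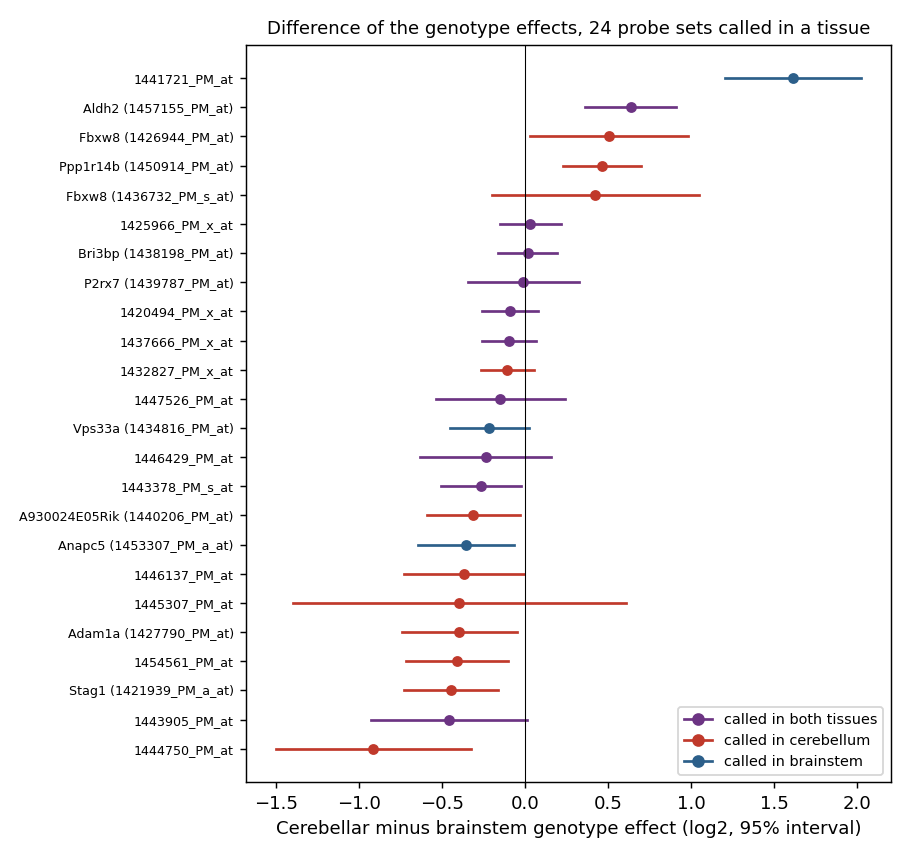
Cerebellar minus brainstem genotype effect (log2) of the 24 probe sets called in cerebellum (red), in brainstem (blue) or in both (purple), with 95% intervals, ordered by the estimate. For 12 of the 24 the interval includes 0, among them P2rx7 and Bri3bp; only 1441721_PM_at passed after correction.

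Of the 24 probe sets, 9 belong to genes within 20 Mb of Atxn2, a region to whose 443 named genes 753 of the probe sets tested are assigned. In this region 7 probe sets passed in cerebellum (0.93%), 5 in brainstem (0.664%) and 0 for the difference, against 14 (0.0316%), 8 (0.0181%) and 1 of the 44284 others. The others include the 15588 probe sets assigned to no gene, wherever they lie. Calls among the others covered 2 named genes in cerebellum and 0 in brainstem. Unnamed calls counted there include 1441721_PM_at, the only call for the difference, and 1443378_PM_s_at, which the study assigns to Adam1a, a neighbour of Atxn2. How many other unnamed calls lie near Atxn2 was not tested. Its median difference was 0.00, as over all other probe sets, and 35 probe sets (4.65%) had an unadjusted p under 0.05, against 3.38% of the others. The lowest p belonged to Aldh2, Ttc28, a protein with tetratricopeptide repeats, Mmp17, a matrix metalloproteinase, Nos1, neuronal nitric oxide synthase, Rph3a, the vesicle protein rabphilin, and Pcolce, an enhancer of procollagen processing. For Ttc28 all 3 probe sets had estimates above 0, with 0.50, 0.46 and 0.35 and intervals that did not include 0. Nos1 had 0.49 by 1422949_PM_at, Mmp17 0.51, Pcolce 0.43 and Rph3a 0.32 by 1434635_PM_at, with effects above 0 in cerebellum and below 0 in brainstem that did not pass in either tissue. The mutant allele came from another strain, and the part of sequence flanking Atxn2 was not tested.

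The transcripts of Atxn2 itself and of Pabpc1, its poly(A)-binding partner, had differences close to 0. The 5 Atxn2 probe sets gave estimates between 0.01 and 0.14, and the widest interval, of 1459363_PM_at, ran from -0.28 to 0.43. For 1419866_PM_s_at the levels were 9.97, 9.94, 9.89 and 10.12 in cerebellum of CAG42 mice, against 9.89, 10.05, 9.96 and 10.03 in WT cerebellum, and 10.21, 10.21, 10.25 and 9.94 in brainstem of CAG42 mice, against 10.25, 10.28, 10.38 and 10.28 in WT brainstem. They overlapped in cerebellum. In brainstem the genotypes were only just apart, with the highest CAG42 array at 10.2472 and the lowest WT array at 10.2515. The CAG42 array at 9.94 lay far below the other CAG42 arrays. Pabpc1 had -0.04 by its bright probe set 1418883_PM_a_at, with an interval from -0.20 to 0.12. The interval of the dim 1453840_PM_at, from -0.55 to 0.36, was wider.

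None of the 20 named genes of lowest p for the difference passed, and their choice by p raises the size of their estimates. In 13 the estimate was above 0 and in 7 below, and in 17 of the 20 the effects in cerebellum and brainstem had opposite signs. Opposite signs were also seen in 1374 of the 1534 probe sets with an unadjusted p under 0.05 from limma. A choice by the p of the difference favours them. All had an adjusted p of 0.999. The differences by number did not overlap between genotypes for 18 of the 20, as their choice by p favours. Over the 16 arrays, 11 of the 20 had a mean under 4. Among the brighter were Pik3r1, the regulatory p85 subunit of phosphoinositide 3-kinase, Ecm1, an extracellular matrix protein, Ero1a, an oxidase of the endoplasmic reticulum, Cdc26, another subunit of the anaphase-promoting complex, and Bcl11a, a zinc finger transcription factor.

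Pik3r1 had 6.91, 6.92, 7.01 and 6.98 in cerebellum of CAG42 mice, against 7.03, 6.999, 7.09 and 7.27 in WT cerebellum, and 7.47, 7.502, 7.22 and 7.55 in brainstem of CAG42 mice, against 7.15, 6.90, 6.999 and 7.15 in WT brainstem. CAG42 brainstem thus lay above WT brainstem by this probe set, 1425515_PM_at, and the difference was -0.53 with an interval from -0.78 to -0.27. Ecm1 had 6.03, 6.25, 6.11 and 6.21 in cerebellum of CAG42 mice, against 5.96, 5.88, 5.89 and 5.80 in WT cerebellum, while brainstem overlapped, with 5.54 to 5.82 in CAG42 mice and 5.77 to 6.03 in WT mice. Its difference was 0.49, with an interval from 0.25 to 0.72. For Bcl11a the difference was 0.37, with 0.39 in cerebellum (adjusted p = 0.0575 from limma) and 0.02 in brainstem. Ero1a had -0.55 and Cdc26 -0.39.

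Grp, the precursor of gastrin-releasing peptide, was measured well in brainstem only. Grp had 6.38, 6.42, 6.49 and 6.18 in brainstem of CAG42 mice, against 6.74, 6.80, 6.59 and 6.52 in WT brainstem, and between 2.91 and 3.31 on all cerebellar arrays. A difference of 0.53, with an interval from 0.30 to 0.76, was thus made of -0.30 in brainstem and 0.23 at the lower end of the scale in cerebellum. Probe set 1446337_PM_at of Htt, huntingtin, gave 0.64, while the 3 other Htt probe sets, all brighter, had differences between -0.06 and -0.01. Nek8, a kinase of cilia, had 0.55, and Syndig1l, a relative of the synapse protein SynDIG1, had 0.54. Gm19325 had 0.52, Dapp1, a phosphoinositide-binding adaptor, 0.40, 4930555F03Rik 0.40, Fam169b 0.35, Cbx1, a heterochromatin protein, -0.37, Mon2, which acts in endosomal transport, -0.50, and Prmt9, an arginine methyltransferase, -0.50. The unnamed 1444761_PM_at (-0.41), 1460088_PM_at (0.38), 1442780_PM_at (0.49) and 1436354_PM_at (-0.59) were among the 10 lowest p.

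Dap, death-associated protein, had the largest estimate of these 20 genes. By 1423790_PM_at it had 4.82, 5.09, 5.24 and 5.73 in cerebellum of CAG42 mice, against 5.95, 5.84, 6.29 and 6.19 in WT cerebellum. In brainstem it had 5.64, 5.47, 5.45 and 5.54 in CAG42 mice, against 5.59, 5.52, 5.30 and 5.62 in WT mice. The genotypes were apart in cerebellum, where the 4 CAG42 arrays spread over almost 1 unit, and overlapped in brainstem. The effect of -0.85 in cerebellum had an adjusted p of 0.065 in the fit of 16 arrays and of 0.00956 when all 24 arrays shared the estimate of the spread. The effect in brainstem was 0.01, and the difference was -0.86, with an interval from -1.31 to -0.41. The second Dap probe set, 1451112_PM_s_at, had -0.74 in cerebellum and -0.14 in brainstem, a difference of -0.60 with an interval from -1.06 to -0.15.

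A similar shape of the opposite sign was seen in 3 further genes, with estimates above 0 in cerebellum where that of Dap was below. They were Rhobtb2, an atypical GTPase that binds cullin 3, Bean1, and Cck, the precursor of cholecystokinin. Bean1 is expressed in brain and carries the repeat of spinocerebellar ataxia type 31 in humans. Rhobtb2 had 7.10, 7.15, 7.56 and 7.60 in cerebellum of CAG42 mice, against 6.77, 6.41, 6.50 and 6.83 in WT cerebellum, and 6.97, 7.18, 7.19 and 7.24 in brainstem of CAG42 mice, against 7.07, 6.77, 6.99 and 7.10 in WT brainstem. Cck had 9.73, 9.87, 9.70 and 9.79 in cerebellum of CAG42 mice, against 9.20, 8.92, 9.20 and 9.43 in WT cerebellum, and 9.46, 9.51, 9.63 and 9.92 in brainstem of CAG42 mice, against 9.52, 9.47, 9.71 and 9.84 in WT brainstem. In both genes CAG42 and WT were apart in cerebellum and overlapped in brainstem.

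The differences were 0.56 for Rhobtb2 by 1435674_PM_at (interval 0.18 to 0.94), 0.37 by its second probe set 1451517_PM_at, 0.57 for Bean1 (0.17 to 0.98) and 0.59 for Cck (0.24 to 0.94). With the number as a block the intervals narrowed to 0.30 to 0.82 for Rhobtb2, 0.29 to 0.86 for Bean1 and 0.32 to 0.86 for Cck, and none passed after correction. In the fit of 16 arrays the cerebellar effects had adjusted p of 0.0636, 0.179 and 0.169. These genes had been singled out for their cerebellar effect, which raises the estimate of the difference. Chek2, a kinase of the DNA damage response, had the other shape, with -0.22 in cerebellum and -0.65 in brainstem (adjusted p = 0.791 and 0.0668). Its brainstem levels were 4.78, 4.64, 4.68 and 4.66 in CAG42 mice, against 5.27, 5.30, 5.60 and 5.19 in WT mice, without overlap, and the difference was 0.43 with an interval from 0.10 to 0.76.

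Across 28 gene lists of cell types and pathways, 0 of the 500 genes measured were called for the difference, each by its brightest probe set. At an unadjusted p under 0.05 there were 21 (4.2%), against 3.41% of all probe sets. The median difference was above 0 in 14 lists and ran from -0.14 to 0.28, beside a median of 0.01 over all 17097 genes. In each of the 28 lists the mean over its genes, as cerebellum minus brainstem by number, overlapped between CAG42 and WT mice. A count of members on one side of 0 has no test here, since the genes of a list share their arrays.

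Neurons of the 2 tissues gave small medians. Purkinje cell genes had a median of 0.08, 8 of 13 above 0, with Foxp2, a transcription factor, at 0.33 and Rgs8, a regulator of G protein signalling, at -0.22. The lowest estimate was that of Car8, -0.42, with an interval from -1.18 to 0.34. Foxp2 averaged 6.56 in CAG42 and 6.36 in WT cerebellum, against 8.43 and 8.57 in brainstem. It was thus not particular to cerebellum here. Granule cell genes had -0.08, 9 of 14 below 0. The genes that couple the glutamate receptor mGluR1 to calcium, which are prominent in Purkinje cells, had -0.02, 10 of 18 below 0. The monoaminergic and cholinergic genes of the brainstem had -0.09, 8 of 13 below 0, and the Hox genes -0.05, 12 of 19 below 0, with Hoxa4 at 0.52. Leaving out arrays gave medians on both sides of 0 for Purkinje cell, granule cell and Hox genes, as for 17 of the 28 lists.

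Channels and receptors were also close to 0. The list of neuronal potassium channels had a median of -0.03. Its member Kcnc4, a channel of the Kv3 family, had 0.32 and 0.31 by its 2 probe sets. Ionotropic glutamate receptors had -0.06, with Grin2b, an NMDA receptor subunit, at 0.52, and GABA-A and glycine receptors -0.10, 13 of 17 below 0. In the purinergic list, with a median of 0.02, P2rx7 passed as lower in each tissue. Entpd3, an ectonucleotidase, had -0.35 (interval -0.63 to -0.06), P2rx4 -0.22 and P2rx1 0.35.

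Neuropeptide precursors had estimates above 0 for 23 of 25 genes and a median of 0.17. In brainstem 22 of 25 had a lower mean in CAG42 mice, while 12 of the 25 lay under 3.5 in cerebellum of both genotypes. Pmch, the precursor of melanin-concentrating hormone, known from neurons of the hypothalamus, had the largest estimate of all probe sets, 2.16 with an interval from -1.20 to 5.53. In brainstem it had 4.58, 4.44, 7.74 and 11.14 in CAG42 mice, against 7.37, 8.19, 9.68 and 11.44 in WT mice, and in cerebellum between 2.82 and 3.58 on all arrays. The brainstem groups overlapped and each spanned over 4 units. Vasopressin (Avp), oxytocin (Oxt) and hypocretin (Hcrt), also peptides of the hypothalamus, had 0.91, 0.72 and 0.51. Their intervals included 0, with -1.22 to 3.03, -0.46 to 1.89 and -2.18 to 3.20. For Avp the WT brainstem array numbered 4 had 8.61, against at most 4.53 on the other WT arrays. For Oxt the same array had 6.96, against at most 4.73. Hcrt was highest in brainstem on the array numbered 4 of each genotype, with 7.40 in CAG42 and 7.996 in WT mice. How much of the hypothalamus each brainstem sample held was not tested. Trh, the precursor of thyrotropin-releasing hormone, had 0.67 with an interval from 0.19 to 1.15, and its brainstem levels were 4.64, 4.85, 5.10 and 4.98 in CAG42 mice, against 5.71, 5.19, 5.01 and 5.53 in WT mice. They overlapped, as did the mean level of the list in brainstem, with 6.05 to 6.59 in CAG42 mice and 6.42 to 7.03 in WT mice.

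Oligodendrocyte and myelin genes had the lowest median, -0.14, with 13 of 15 below 0. Their mean level in brainstem was 9.65 to 9.81 in CAG42 mice and 9.52 to 9.69 in WT mice, and in cerebellum 8.10 to 8.41 in CAG42 mice and 8.20 to 8.35 in WT mice, so that the genotypes overlapped in both. Ermn, a cytoskeletal protein of myelinating cells, had -0.29 (interval -0.56 to -0.03) and Mobp, a myelin protein, -0.49 (interval -1.01 to 0.03). Microglia and complement genes had a median of 0.17, 11 of 15 above 0, and genes of astrocytes and Bergmann glia 0.01.

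**Figure D4:**
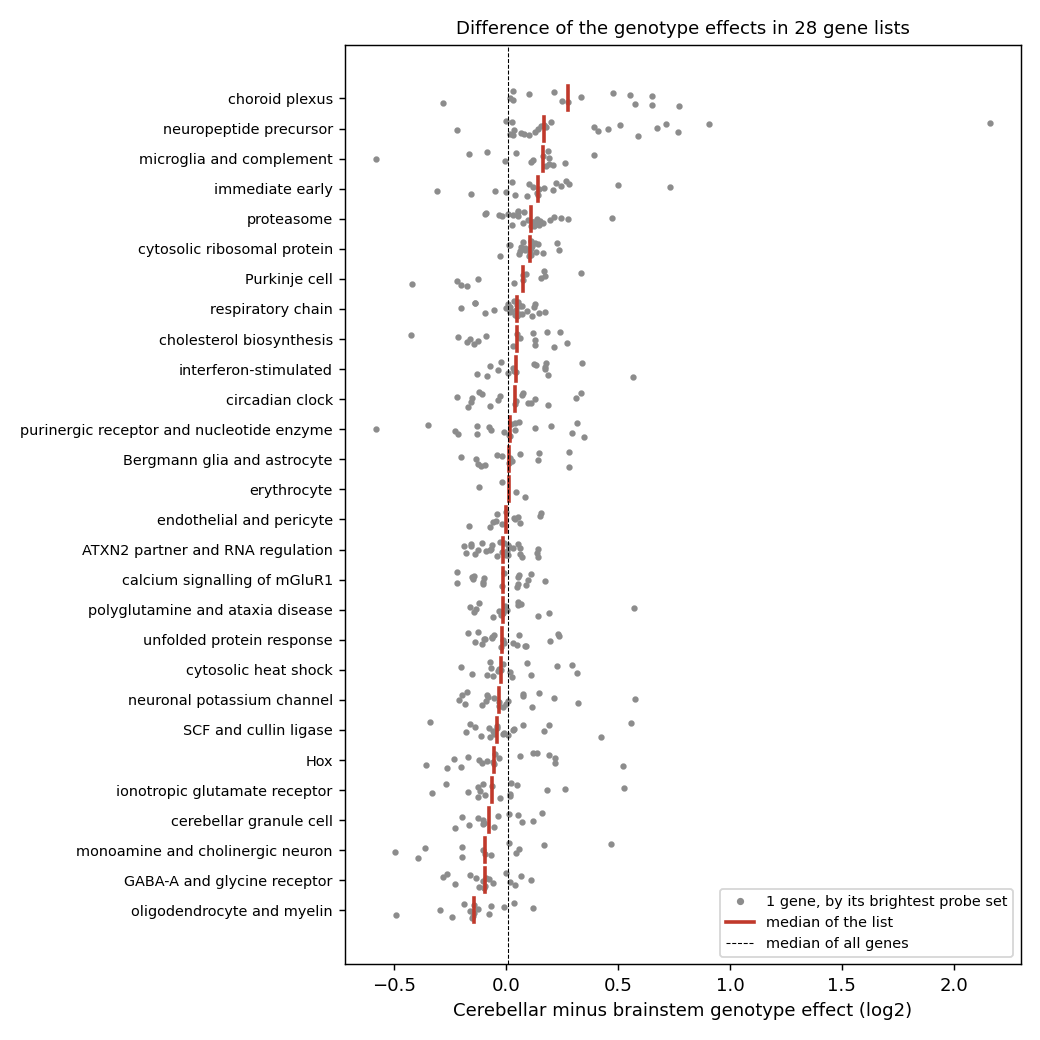
Cerebellar minus brainstem genotype effect (log2) of the genes of 28 lists, 1 grey point per gene by its brightest probe set, with the median of each list in red and the median of all genes dashed. The medians run from -0.14 (oligodendrocyte and myelin) to 0.28 (choroid plexus), and the far point at 2.16 is Pmch.

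Choroid plexus genes, which mark the epithelium of the ventricles and not the tissues named in the labels, had the highest median, 0.28, with 14 of 15 above 0. Ttr, transthyretin, the most abundant of them, had 12.61, 12.83, 12.39 and 12.71 in cerebellum of CAG42 mice, against 11.88, 12.72, 12.45 and 9.73 in WT cerebellum. In brainstem it had 12.92, 12.70, 12.89 and 13.03 in CAG42 mice, against 13.09, 12.75, 12.37 and 12.66 in WT mice. The groups overlapped in both tissues, 1 WT array of cerebellum was the lowest by far, and the difference of 0.77 had an interval from -0.53 to 2.07. The mean level of the list ran from 5.84 to 6.33 in cerebellum of CAG42 mice, from 4.80 to 6.31 in WT cerebellum, from 6.59 to 7.07 in brainstem of CAG42 mice and from 6.23 to 7.33 in WT brainstem. Without the WT arrays numbered 1 in both tissues the median of the list was -0.02, and without those numbered 3 it was 0.59. With the mean level of the list as a covariate 1441721_PM_at had a difference of 1.63 and stayed called (adjusted p = 0.035 from limma).

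Erythrocyte genes had estimates above 0 in both tissues. The haemoglobin gene Hba-a1 had 0.53 in cerebellum and 0.44 in brainstem, Hbb-b2 0.62 and 0.57, and Alas2, the enzyme of haem synthesis in erythroid cells, 0.81 and 0.93, while Slc4a1, the anion exchanger of the red cell membrane, had 0.06 and 0.08, and none passed in either tissue. The median difference was 0.01 over 4 genes, and the mean level was 8.35 to 8.85 in cerebellum of CAG42 mice, 7.93 to 8.84 in WT cerebellum, 8.52 to 9.21 in brainstem of CAG42 mice and 7.99 to 8.93 in WT brainstem, so that the genotypes overlapped in both. The part that blood had in the results above was not tested.

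**Figure D5:**
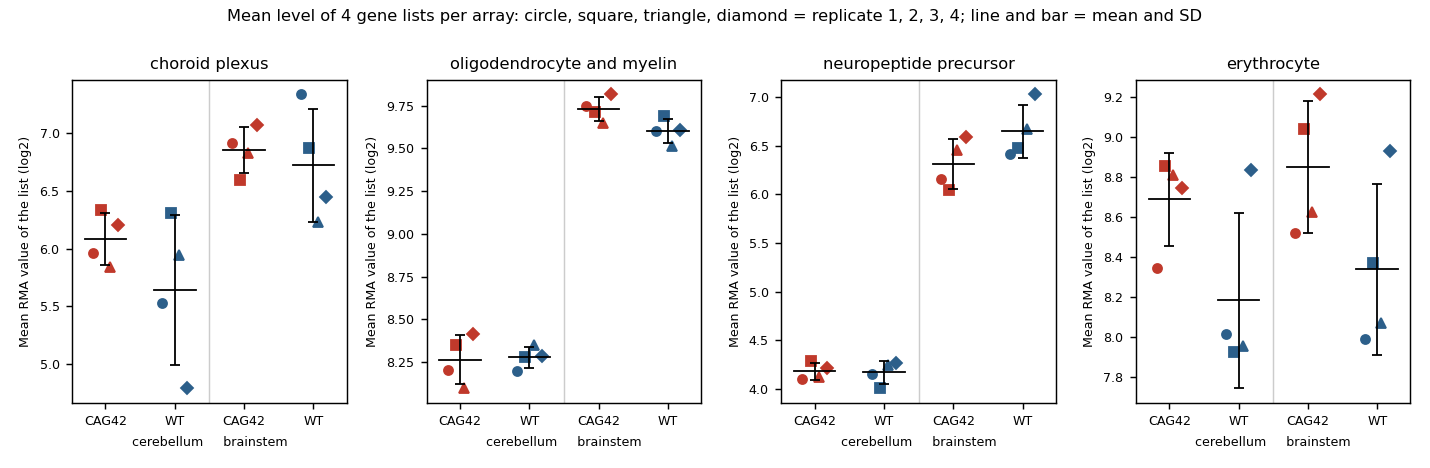
Mean RMA value (log2) of the genes of 4 lists on each array, CAG42 in red and WT in blue, cerebellum left and brainstem right in each panel, with replicate numbers as marks and mean and SD as bars (n = 4). CAG42 and WT overlap in all 8 pairs of groups, and the choroid plexus list has its lowest array, 4.80, in WT cerebellum.

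Proteasome genes had a median of 0.11, 23 of 27 above 0, and their 3 members with an unadjusted p under 0.05 were the catalytic subunits Psmb7 (0.28), Psmb10 (0.21) and Psmb5 (0.20). Cytosolic ribosomal proteins had 0.10, 23 of 24 above 0, with Rpl22 at 0.24, and the respiratory chain had 0.05, 23 of 29 above 0. In these lists the median effect was 0.03, 0.08 and 0.03 in cerebellum and -0.06, -0.02 and -0.01 in brainstem. Heat shock genes (-0.03), genes of the unfolded protein response (-0.02), partners of ATXN2 (-0.01), other polyglutamine and ataxia genes (-0.02), and cullin ligase genes (-0.04) stood near 0. In the cullin ligase list Fbxw8 alone passed, in cerebellum. Immediate early genes had a median of 0.14, with 0.23 in cerebellum and 0.10 in brainstem, and interferon-stimulated genes had 0.04. The clock list had 0.04, with Hlf, a PAR bZIP transcription factor, at 0.31 and Ciart, a repressor of the clock, at 0.33.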

How the data were processed

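RNA of 24 tissue samples was hybridized to Affymetrix arrays whose probe set names are those of a perfect-match-only version, while the methods name MOE430 2.0. The deposited values are log2 expression values that the authors made with RMA, a procedure of background adjustment, quantile normalization and summary over probes; the submitters' processing notes name R 2.7.0. No genome build is given in the labels or methods, so that no coordinates are printed. Labels and methods differ on RNA input and kit. RMA over 3 tissues at once can shift low values, and the number of arrays limits the precision.

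Tissue, genotype and number came from the labels. Gene names came from the annotation of the platform: of 45037, 28898 have 1 gene, 551 several and 15588 none. The gene table of assembly GRCm38.p6 served for symbols (28689 matched) and for neighbours of Atxn2. A linear model with 4 group means was fitted to 16 arrays with limma 3.58.1 in R 4.3.3, and Benjamini-Hochberg correction ran over 45037 probe sets, with a call at an adjusted p under 0.05. Intervals are 95% intervals of the moderated statistic. Figures were drawn with matplotlib 3.10.9. The procedure was also run on simulated data with independent arrays. How often it recovered differences of the sizes reported here is not given.

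Named genes were the 20 of lowest p for the difference, up to 10 called per tissue, Fbxw8, Adam1a, Atxn2 and Pabpc1, up to 4 members of each list by p and 6 genes near Atxn2. Second probe sets, Chek2, Ttr, Pmch and any gene outside this rule were picked with their values in view. Members and lists were chosen with earlier results of these data known.

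Replicate numbers pair the arrays of a genotype across the 2 tissues: deviations from the group means correlated with r from 0.224 to 0.375 in the 8 pairs, and 8 of 8 correlated best with their own number. Between genotypes r ran from -0.174 to 0.214. There only the arrays numbered 4 correlated best with their own number, in both tissues. The sources do not say that a number marks 1 mouse. Alternatives were the block, a random block, all 24 arrays, a filter on dim probe sets, quantile normalization within tissue, array weights, an intensity-dependent prior, gene means, the choroid plexus level as covariate, and leaving out arrays. Liver arrays entered only the fit of 24 arrays.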

Additional observations from a re-analysis of the deposited data

Results flagged for a closer look

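The probe set 1441721_PM_at stands here because its genotype effects in cerebellum and brainstem differed by the test of the difference itself, with 1.61 on the log2 scale.

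Among 372 groups of 4 arrays checked (93 probe sets in 4 groups), 27 had 1 array far from the 3 others, where chance gives about 1 in 20. In cerebellum of CAG42 mice these were Dapp1 in replicate 1 (2.92), P2rx4 in replicate 3 (7.95, others up to 7.80), Fbxw8 by 1426944_PM_at in replicate 4 (8.38, others up to 8.16), 1446137_PM_at in replicate 3 (4.93), 1445307_PM_at in replicate 2 (7.49, others up to 5.87) and 1447526_PM_at in replicate 4 (5.87). In WT cerebellum they were Rpl22 in replicate 2 (9.08), 1446137_PM_at in replicate 4 (5.76), Fbxw8 by 1436732_PM_s_at in replicate 3 (7.81, others up to 6.80), 1446429_PM_at in replicate 3 (5.71) and Slc15a2, a peptide transporter, in replicate 1 (8.57, others up to 5.53).

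In brainstem of CAG42 mice the single arrays were 1442780_PM_at in replicate 4 (3.18), Mmp17 in replicate 2 (6.72), P2rx4 in replicate 3 (7.47), 1446137_PM_at in replicate 1 (3.53), Kcnc4 by 1425089_PM_at in replicate 3 (5.40), 1443905_PM_at in replicate 1 (3.70, others from 4.098), Vps33a in replicate 1 (7.47) and Atxn2 by 1419866_PM_s_at in replicate 4 (9.94, others from 10.21). In WT brainstem they were 1444750_PM_at in replicate 1 (4.88), Rph3a in replicate 4 (9.54), Entpd3 in replicate 1 (7.09), Adam1a by 1427790_PM_at in replicate 3 (6.30, others from 6.65), Kcnc4 by 1425089_PM_at in replicate 2 (5.45), Fbxw8 by 1458413_PM_at in replicate 3 (3.14), 1420494_PM_x_at in replicate 1 (11.37) and Pabpc1 by 1453840_PM_at in replicate 2 (3.74).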

How the results depend on the processing

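The count of probe sets called for the difference was 0 with the replicate block, with probe sets at or above the median level only and with the probe sets of each gene averaged (1441721_PM_at, unnamed and dim, is absent from the last 2), and 0 to 1 when arrays were left out. With the replicate block 1441721_PM_at had an adjusted p of 0.0718 from limma, and 12 probe sets were called in cerebellum and 6 in brainstem; with all 24 arrays 7 were called in brainstem, 6 of the 21 cerebellar and 7 of the 13 brainstem calls being lost, and with gene means 3 genes in cerebellum and 1 in brainstem. Leaving out arrays gave 13 to 34 calls in cerebellum, 34 without CAG42 replicate 4 and 13 without WT replicate 2 of both tissues, and 9 to 19 in brainstem. The call of 1441721_PM_at was lost without WT replicate 3 of cerebellum, without WT replicates 1, 2 or 4 of brainstem, without CAG42 replicates 2, 3 or 4 of either tissue or of both, and without WT replicates 1 or 2 of both. Signs turned for Foxp2 (-0.016) and Dnajc3, a chaperone of the endoplasmic reticulum (-0.047), with gene means and for Atxn2 with the choroid plexus covariate (1460653_PM_at -0.010, 1438144_PM_x_at -0.024). Over the fits that left out arrays, values on both sides of 0 were seen for Atxn2 (1438143_PM_s_at -0.021 to 0.12, 1460653_PM_at -0.029 to 0.099, 1438144_PM_x_at -0.051 to 0.12, 1459363_PM_at -0.016 to 0.18), Bri3bp (-0.029 to 0.058), P2rx7 (-0.15 to 0.087), Pabpc1 by 1453840_PM_at (-0.27 to 0.049), Adam1a by 1427791_PM_a_at (-0.16 to 0.017) and 1447526_PM_at (-0.27 to 0.012). The median of the purinergic list was -0.071 with the filter and that of the polyglutamine list 0.042 with gene means. Without single arrays or numbers the medians of 17 of 28 lists lay on both sides of 0, among them Purkinje cell (-0.043 to 0.093), granule cell (-0.15 to 0.035) and Hox (-0.21 to 0.14). Other medians were -0.058 to 0.055 (purinergic), -0.056 to 0.026 (polyglutamine), -0.046 to 0.075 (clock), 0.050 to 0.22 (immediate early), -0.11 to -0.013 (glutamate receptors) and -0.13 to 0.014 (GABA-A and glycine receptors). Of 779 values of single probe sets under 9 settings, 774 kept sign and side of the threshold. This count was largely fixed in advance and is no measure of stability. With all 24 arrays, either block, the filter or the intensity-dependent prior the estimate is the same by construction. All probe sets but 1441721_PM_at also lay far from the threshold in the main fit. Why these values moved was not tested. Detection calls were not used here, and 11 of the 20 named genes of lowest p had a mean under 4.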

Other observations

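Of the 9 probe sets whose difference of genotype effects had a size of at least 1, only 1441721_PM_at had an interval that excluded 0 in the fit without the number as a block. With the block this also held for Pnma2 (-2.42 to -0.18) and for the unnamed 1418141_PM_at (0.40 to 1.86) and 1415823_PM_at (-1.96 to -0.06), and none of these passed after correction. Pnma2, a neuronal antigen of paraneoplastic disease, had 6.49, 6.71, 7.62 and 7.58 in brainstem of CAG42 mice, against 6.64, 4.72, 4.17 and 6.70 in WT brainstem, and between 2.91 and 3.41 on all cerebellar arrays, with a difference of -1.30 and an interval from -2.64 to 0.03. The unnamed 1444198_PM_at had 3.06, 2.96, 2.76 and 8.41 in brainstem of CAG42 mice, against 7.35, 7.47, 2.91 and 7.40 in WT brainstem, so that each genotype held arrays at both levels. In cerebellum the same probe set had 2.699, 2.65, 2.90 and 5.51 in CAG42 mice, against 4.47, 4.62, 2.93 and 4.27 in WT mice, with the same replicate numbers low in both tissues. Slc15a2 had 8.19, 7.66, 7.999 and 5.495 in cerebellum of CAG42 mice, against 8.57, 4.996, 5.20 and 5.53 in WT cerebellum, also at 2 levels within each genotype. In brainstem it lay between 6.75 and 7.51 in CAG42 mice and between 6.68 and 7.77 in WT mice.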
